A study of Mus musculus with 28 samples.

Results

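The Ly6 surface proteins Ly6a, Ly6c1, Ly6c2, Ly6e and Ly6i were followed in murine bone marrow-derived macrophages (BMDMs) exposed to von Willebrand factor (VWF) or lipopolysaccharide (LPS). These 5 genes were taken from the 54532 genes of the read count table. They were chosen by the log2 fold change of Ly6i for VWF against control, one of the largest late VWF effects, so every comparison of the members that uses the VWF cultures at 16 h, and the gain of the VWF effect between the time points, is given as a description without a p-value. The cultures were BMDMs from young adult mice of the C57/B6JB strain, as the study's methods spell it, grown from bone marrow in M-CSF, seeded overnight and then kept in fresh medium with calcium chloride. They received PBS (control), 10 µg/ml of plasma-derived VWF (pd-VWF), the large multimeric plasma glycoprotein that tethers platelets, or 100 ng/ml of LPS, the bacterial ligand of Toll-like receptor 4. RNA was taken after 3.5 h or 16 h. At each time there were 5 control, 5 VWF and 4 LPS cultures, labelled as biological replicates, which makes 28 in all. The labels do not say whether each came from its own animal, so p-values measure the spread between these cultures. BMDMs of this kind are an ex vivo model of M-CSF-driven macrophages, and each treatment was given at a single dose.

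Ly6 proteins are small cell-surface molecules of the Ly6/uPAR family that are held in the outer leaflet of the plasma membrane by a glycosylphosphatidylinositol (GPI) anchor. Ly6a, also called Sca-1, is best known as a surface marker of murine hematopoietic stem cells and is inducible by interferons. The products of Ly6c1 and Ly6c2 together make up the Ly6C antigen used to sort inflammatory monocytes, and Ly6e is an interferon-inducible family member known for its effects on virus entry. Ly6i is a close relative of Ly6a about which less is known.

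The members lie side by side on chromosome 15 of the GRCm38 assembly, and how alike they are decides how far their reads can be told apart. In the GENCODE M21 annotation, Ly6e (ENSMUSG00000022587) spans 74955051 to 74959905 on the plus strand. The other members are on the minus strand, with Ly6i (ENSMUSG00000022586) at 74979534 to 74983430, Ly6a (ENSMUSG00000075602) at 74994877 to 74998031, Ly6c1 (ENSMUSG00000079018) at 75044018 to 75048830 and Ly6c2 (ENSMUSG00000022584) at 75108158 to 75111970. No member overlapped another annotated gene. The first 75 coding bases of each member are shown because they hold most of the differences between Ly6c1 and Ly6c2. Capitals mark bases that differ from the aligned base of Ly6c2, or that have no partner there.
Ly6c2: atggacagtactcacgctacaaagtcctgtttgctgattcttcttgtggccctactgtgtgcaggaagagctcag
Ly6c1: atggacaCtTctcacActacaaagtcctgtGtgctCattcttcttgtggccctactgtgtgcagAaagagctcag
Ly6a: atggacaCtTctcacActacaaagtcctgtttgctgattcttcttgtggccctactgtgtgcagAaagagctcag
Ly6i: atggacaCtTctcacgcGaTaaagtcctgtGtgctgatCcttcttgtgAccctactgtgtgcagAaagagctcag
Ly6e: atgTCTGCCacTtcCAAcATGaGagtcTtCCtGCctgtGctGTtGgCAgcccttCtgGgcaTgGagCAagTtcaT

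Over the whole coding sequence Ly6c1 and Ly6c2 were identical at 387 of 396 aligned positions (97.7%), and 6 of the differences fell in the stretch shown. Ly6a and Ly6i shared 86.4% of aligned coding positions, and each shared between 81.7% and 82.0% with the Ly6c genes. Ly6e shared between 50.1% and 53.1% with the other members. When every transcript was divided into 100-base windows, 10.1% of the windows of Ly6c1, 5.81% of those of Ly6c2 and 1.45% of those of Ly6a occurred letter for letter in another gene, and none of the windows of Ly6e or Ly6i did. Counts of Ly6c1 and Ly6c2 are therefore uncertain to the extent that reads could be split between them, and both are also given as a sum.

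The upstream sequences of the Ly6c pair were less alike than their coding sequences, and they are shown because promoter entries were used for this pair alone. Each line holds the 250 bases before the RefSeq start (GRCm38.p6, minus strand). Within the aligned stretch, capitals mark bases that differ between the pair or have no partner. The ends outside that stretch were not compared and are in lower case. Ly6c1 is chr15:75048838-75049087 and Ly6c2 is chr15:75111972-75112221.
Ly6c1: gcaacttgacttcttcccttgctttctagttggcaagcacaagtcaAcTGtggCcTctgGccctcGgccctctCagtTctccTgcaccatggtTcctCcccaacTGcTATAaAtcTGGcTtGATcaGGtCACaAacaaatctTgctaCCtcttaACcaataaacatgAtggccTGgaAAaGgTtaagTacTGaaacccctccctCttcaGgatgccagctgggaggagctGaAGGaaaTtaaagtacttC
Ly6c2: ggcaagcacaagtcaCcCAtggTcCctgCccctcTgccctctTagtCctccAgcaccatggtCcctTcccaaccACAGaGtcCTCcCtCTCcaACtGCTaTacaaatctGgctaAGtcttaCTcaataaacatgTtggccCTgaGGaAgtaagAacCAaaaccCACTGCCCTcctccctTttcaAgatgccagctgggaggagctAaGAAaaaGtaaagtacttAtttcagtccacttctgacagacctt

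Of 228 aligned positions, which include 12 gap positions, 164 (71.9%) were identical. Each gene of the pair had 2 RefSeq promoter entries, and only the entry nearest its annotated start was shown and searched. Neither 300-base RefSeq promoter of the pair, which also takes in the first 50 transcribed bases, held a gamma-activated sequence (TTCNNNGAA), an interferon-stimulated response element core (GAAANNGAAA) or an NF-kappaB motif, searched on both strands. Those motifs were present in 8.30%, 3.44% and 4.51% of 32851 promoters of the same length. No promoter entries were used for Ly6a, Ly6e and Ly6i.

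The libraries held between 41131209 and 77699206 counts, with a median of 52986574, so that 3 counts correspond to 0.0386 to 0.0729 CPM (counts scaled to a library of fixed size) before scaling. All 8 macrophage markers, among them Adgre1, Csf1r and Cd68, reached 10 TPM (the same per transcript length) in every group. Their summed level was 18739 to 26060 CPM with VWF at 16 h, above the range of every other group. Control culture 5 at 16 h stood apart, with 5862 CPM beside 15005 to 17313 CPM in the other 16 h controls, and it held no read of Ly6i or Ly6c2. Without it the 16 h log2 fold changes given below became 8.23 for Ly6i, 5.20 for Ly6c2, 3.82 for Ly6a and 2.73 for Ly6e with VWF, and 8.08, 3.74, 7.63 and 3.58 with LPS. Neutrophil marker sums were between 4.86 and 38.2 CPM, and Ly6g, the defining Ly6 gene of neutrophils, had at most 2 counts in any culture. T cell, B cell, dendritic cell, progenitor and endothelial marker sums reached at most 102 CPM, for endothelial genes with LPS at 16 h. Summed stromal markers (Col1a1, Col1a2, Col3a1, Pdgfrb and Dcn) ranged from 17.8 to 419 CPM over the cultures, with overlapping ranges in the 6 groups.

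Ly6i went from almost no reads in the controls to its highest level with VWF at 16 h. Control cultures at 3.5 h held 9, 4, 4, 2 and 2 counts, and those at 16 h held 9, 1, 0, 5 and 0. With VWF the counts were 55, 39, 53, 98 and 90 at 3.5 h and 833, 1526, 1083, 1561 and 446 at 16 h. With LPS they were 27, 27, 22 and 29 at 3.5 h and 478, 828, 489 and 825 at 16 h. No treated culture overlapped with a control, and no 16 h treated culture overlapped with one from 3.5 h. In CPM scaled by trimmed mean of M-values (TMM) factors, the group means were 0.0732 ± 0.0514 and 0.0429 ± 0.0554 (SD, n = 5) in controls at 3.5 h and 16 h, 1.22 ± 0.556 and 16.8 ± 7.23 (SD, n = 5) with VWF, and 0.675 ± 0.0892 and 14.8 ± 4.61 (SD, n = 4) with LPS. The lowest VWF value at 3.5 h, 0.793 CPM, lay just above the highest LPS value, 0.786 CPM, whereas at 16 h the VWF range of 8.16 to 27.7 CPM contained the LPS range of 10.7 to 20.8 CPM.

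Fitted with edgeR's quasi-likelihood model over the 7798 genes that reached 10 TPM, the log2 fold change of Ly6i for VWF against control at 16 h was 8.48 ± 0.67 (SE), rank 4 from the highest in a comparison where 4.55% of genes were called higher, and the VWF effect gained 4.42 ± 0.91 between 3.5 h and 16 h, rank 3 of 8660 genes. These values chose the family and are not a test. At 3.5 h Ly6i stayed under 10 TPM (highest 4.85 TPM), and without a filter on low values its log2 fold change was 4.11 ± 0.45 for VWF. The LPS cultures did not enter the choice, but the control cultures they are compared with did. The LPS values of Ly6i are therefore given without a p-value. Against these controls the log2 fold change of Ly6i with LPS at 16 h was 8.34 ± 0.71. Ly6i passed the filter there only through its LPS cultures, so that value carries no test. In the fits without a filter the log2 fold change of Ly6i with LPS was 8.41 ± 0.64 at 16 h and 3.23 ± 0.52 at 3.5 h. The size of the 16 h effects rests on few control reads. Without control culture 1 at 16 h, which held 9 of the 15 control counts, the values became 9.37 for VWF and 9.20 for LPS, and the gain of the VWF effect with time became 5.31. The gain of the LPS effect on Ly6i with time was 5.13 ± 0.87, or 5.996 without that culture. Ly6i passed the filter of this fit too only through its LPS cultures at 16 h. Without a filter the gain was 5.11 ± 0.81, in a fit that called 6.28% of all genes higher.

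**Figure D1:**
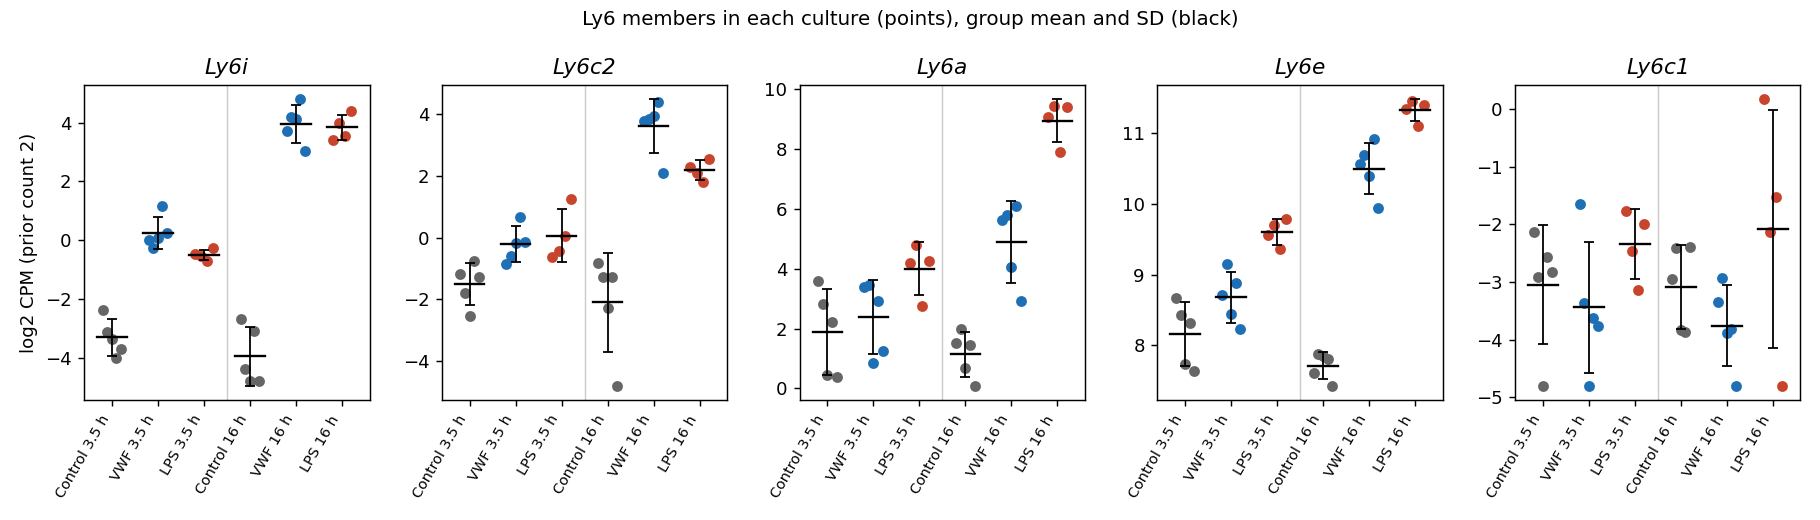
The 5 members in each culture as log2 CPM with a prior count of 2 (vertical axis) for the 6 groups (horizontal axis), with points for cultures and black bars for the group mean and SD. Ly6i, Ly6c2, Ly6a and Ly6e were highest in the treated groups at 16 h, Ly6c2 with VWF and Ly6a and Ly6e with LPS, while the ranges of Ly6c1 overlapped in all groups.

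Ly6c2, which encodes the Ly6C antigen together with Ly6c1, had a higher mean level under VWF than under LPS at 16 h. Its counts were 39, 32, 10, 23 and 0 in controls at 16 h, 872, 1211, 960, 1181 and 233 with VWF, and 220, 219, 145 and 232 with LPS. In CPM, VWF cultures held 13.7, 14.3, 15.2, 20.96 and 4.26 and LPS cultures held 4.90, 4.203, 3.48 and 5.85. All but the lowest VWF culture lay above every LPS culture, and all treated cultures lay above the controls, which reached at most 0.526 CPM. The log2 difference of VWF from LPS was 1.57 ± 0.39, in a fit where Ly6c2 passed the filter only through its VWF cultures. Against control the log2 fold change was 5.50 ± 0.68 for VWF, rank 16 of 7798 genes. For LPS Ly6c2 stayed under 10 TPM (highest 3.95 TPM), and it rose by 4.07 ± 0.64 in the fit without a filter (adjusted p = 3.68e-04), in which 8.71% of all genes were higher.

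At 3.5 h Ly6c2 was low in all groups, and the treated groups lay close together. The means were 0.347 ± 0.161 CPM in controls, 0.887 ± 0.408 with VWF (SD, n = 5) and 1.17 ± 0.809 with LPS (SD, n = 4). The ranges of the VWF and LPS cultures overlapped, and the lowest VWF culture, at 0.515 CPM, lay within the control range. In the fits without a filter Ly6c2 rose by 1.43 ± 0.38 with VWF (adjusted p = 0.0108) and by 1.82 ± 0.44 with LPS (adjusted p = 0.00171), where 5.33% and 8.35% of all genes in those fits were called higher. Without VWF culture 4 the first value was 1.13 and no longer passed (adjusted p = 0.0540), and without LPS culture 4 the second was 1.22 (adjusted p = 0.0432). Between 3.5 h and 16 h the VWF effect on Ly6c2 gained 4.17 ± 0.77, rank 5 of 8660 genes. The gain of the LPS effect was 2.19 ± 0.80 and did not pass the test (adjusted p = 0.0654), in a fit that called 6.28% of all genes higher. It passed when any of the cultures control 3 or LPS 4 at 3.5 h, or control 1 or 5 at 16 h, was left out (adjusted p = 0.0411, 0.0178, 0.0349 and 0.0187), with values between 1.89 and 2.79. It also passed with edgeR's own filter on low counts (2.20, adjusted p = 0.0446) and with all 28 cultures in 1 fit (2.20, adjusted p = 0.0196), and for the summed counts of Ly6c1 and Ly6c2 it was 2.10 ± 0.62 (adjusted p = 0.0174). When the counts of Ly6c1 and Ly6c2 were summed, the values were 5.18 ± 0.49 for VWF against control at 16 h, 3.80 ± 0.40 for LPS against control (adjusted p = 8.63e-06) and 1.45 ± 0.36 for VWF against LPS.

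Ly6C is used as a monocyte antigen, so the other monocyte markers are given beside Ly6c2. The summed CPM of 7 such markers was 125 to 160 in controls, 114 to 269 with VWF and 97.3 to 146 with LPS at 16 h, which overlap. For VWF against control at 16 h, 4 of the 7 could be tested, of which 1 was called higher and 2 lower, with a median log2 fold change of -0.97. Of all genes tested, 4.55% were called higher and 4.15% lower, with a median of -0.03. In the 5 VWF cultures at 16 h, replicates 5, 1, 2, 3 and 4 came in this order both by Ly6c2 and by the marker sum. The 2 orders differed in every other group. In 16 h controls replicate 5, and with VWF at 3.5 h replicate 1, was lowest by Ly6c2 and highest by the sum. With LPS at 16 h replicate 4 was highest by Ly6c2 and lowest by the sum. In controls and LPS cultures at 3.5 h replicate 4 was highest by both. Most of that sum with VWF was Cx3cr1, a chemokine receptor also carried by macrophages, with 161 ± 56.4 CPM under VWF and 66.7 ± 24.6 CPM in controls (SD, n = 5). Ccr2, the chemokine receptor of Ly6C-bearing monocytes, had 17.8 ± 4.97 CPM with VWF and 32.6 ± 6.79 CPM in controls (SD, n = 5). Cx3cr1 and Ccr2 are named here after their values were seen. The part of these cells in the Ly6c2 values was not tested, and in bulk RNA more cells of a type and more RNA per cell cannot be told apart.

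Ly6a was the member with the widest difference between the treatments. At 16 h the control cultures held 2.80, 3.88, 1.57, 2.70 and 1.02 CPM, the VWF cultures 48.99, 55.2, 16.4, 69.0 and 7.48 CPM, and the LPS cultures 532, 689, 240 and 674 CPM. The 3 groups did not overlap. Ly6a rose by 7.83 ± 0.52 on the log2 scale with LPS against control (adjusted p = 1.54e-06), the log2 fold change for VWF was 4.01 ± 0.63, and the log2 difference of VWF from LPS was -3.76 ± 0.63. In mean CPM, LPS was 13.6 times VWF.

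At 3.5 h the Ly6a groups overlapped. Controls held 1.27 to 11.8 CPM, VWF cultures 1.76 to 10.9 CPM and LPS cultures 6.72 to 27.9 CPM. The difference of VWF from control was 0.37 ± 0.69 and did not pass the test (adjusted p = 0.726), a difference smaller than its SE. Ly6a rose by 1.81 ± 0.63 with LPS (adjusted p = 0.0257), but this call was lost without control culture 4, LPS culture 2 or LPS culture 4 (adjusted p = 0.0515, 0.0704 and 0.0547), without a filter (0.107) and with library size alone as the scaling (1.296, adjusted p = 0.0832). The log2 difference of VWF from LPS, -1.43 ± 0.56, did not pass either (adjusted p = 0.0534), and it passed without LPS culture 3, VWF culture 1 or VWF culture 2 (-1.70, -1.68 and -1.69, adjusted p = 0.0335, 0.0454 and 0.0446), with DESeq2 (-1.44, adjusted p = 0.0487) and with edgeR's own filter (-1.49, adjusted p = 0.0399). With the replicate number as a block in edgeR, the difference of Ly6a between VWF and LPS was -1.31 ± 0.19 and passed (adjusted p = 0.00251). Same-numbered cultures of these 2 groups had deviations correlated between -0.153 and 0.449. The LPS effect on Ly6a gained 6.02 ± 0.87 between the time points (adjusted p = 2.32e-05).

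Part of the spread of Ly6a followed the replicate number. Replicate 3 or 5 was the lowest culture in each of the 6 groups, and where both existed they were the lowest pair in all 4 groups. The same cultures were low in the stromal markers: replicates 3 and 5 were also the lowest pair of the stromal sum in these 4 groups, and replicate 3 was lowest among the LPS cultures at 3.5 h but second lowest at 16 h, where LPS culture 4 was lowest at 66.6 CPM. Within a group the highest stromal sum was between 3.82 and 10.6 times the lowest, and the highest Ly6a value was between 2.87 and 9.31 times the lowest. Between groups the stromal sums overlapped, with 17.8 to 188 CPM in controls, 58.7 to 305 CPM with VWF and 66.6 to 353 CPM with LPS at 16 h, while Ly6a did not overlap. Ly6a is also expressed outside the blood lineages, and the part of stromal cells in its values was not tested. Ly6i followed this order only in part. Replicates 3 and 5 were its lowest in 16 h controls, both at 0 CPM, and replicate 3 was lowest with LPS at 3.5 h. With VWF at 16 h replicate 5 was lowest, but culture 3 held 17.2 CPM, near the middle of its group. The lowest was replicate 4 in 3.5 h controls, 2 with VWF at 3.5 h and 1 with LPS at 16 h. Ly6e also followed the order in part. Replicates 3 and 5 were its lowest pair in controls and VWF cultures at 3.5 h and in VWF cultures at 16 h. Replicate 3 was lowest in both LPS groups, but in the 16 h controls replicates 5 and 1 were lowest.

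**Figure D2:**
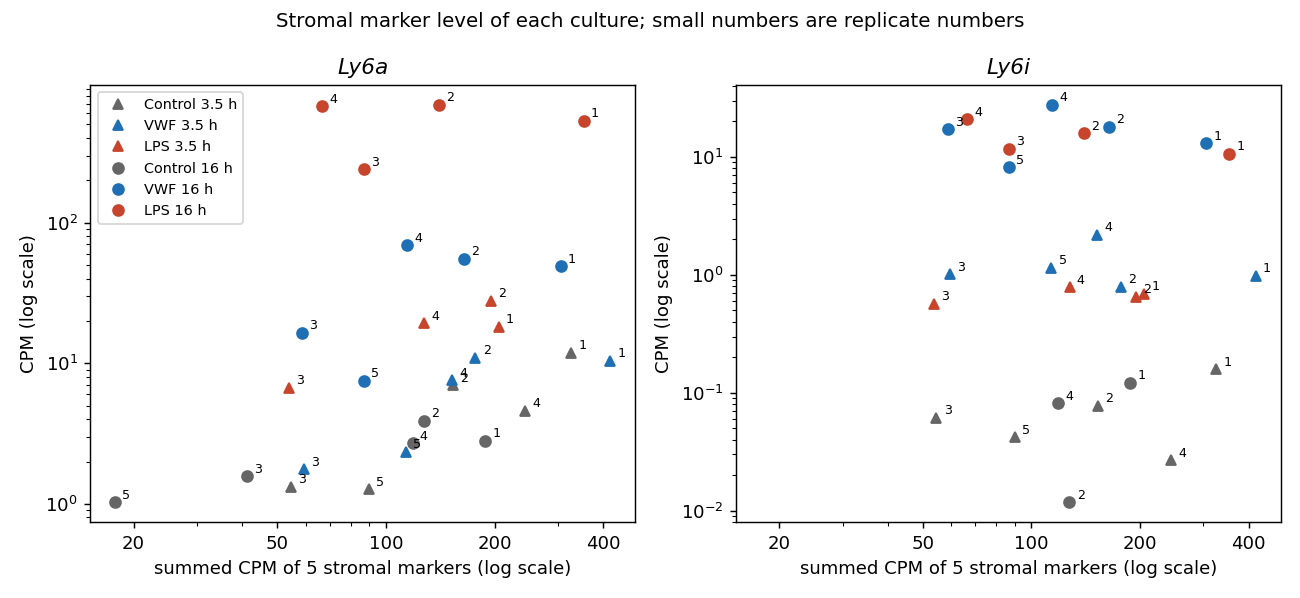
Ly6a (left) and Ly6i (right) in CPM against the summed CPM of 5 stromal markers, all on log axes, with 1 point per culture, triangles for 3.5 h, circles for 16 h, and the replicate number beside each point. The 2 control cultures with 0 counts of Ly6i are not drawn. Ly6a was highest in LPS cultures at 16 h, between 240 and 689 CPM, over a stromal range that other groups also covered, while control and VWF cultures at 3.5 h lay among each other.

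Ly6e was the most abundant member in every group including the untreated ones. At 16 h it held 196, 234, 230, 225 and 172 CPM in controls, 1508, 1651, 1341, 1931 and 983 CPM with VWF, and 2596, 2804, 2195 and 2693 CPM with LPS. The 3 groups did not overlap. Ly6e rose by 3.64 ± 0.14 with LPS (adjusted p = 5.22e-08), and the log2 fold change for VWF was 2.80 ± 0.18, rank 86 of 7798 genes. The log2 difference of VWF from LPS was -0.79 ± 0.18, smaller than the fold of 2 needed for a call.

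At 3.5 h the Ly6e means were 296 ± 89.0 CPM in controls, 421 ± 105 CPM with VWF (SD, n = 5) and 781 ± 99.7 CPM with LPS (SD, n = 4). VWF overlapped with control, and LPS lay above both. Ly6e rose by 1.42 ± 0.21 with LPS (adjusted p = 1.23e-04), while the difference for VWF was 0.53 ± 0.23 and did not pass (adjusted p = 0.0837). With library size alone as the scaling the LPS value was 0.90, under the fold needed for a call. Ly6e was lower with VWF than with LPS by a log2 difference of -0.87 ± 0.18 (adjusted p = 0.00240), again under that fold, and by -1.003, a call, without VWF culture 2. The LPS effect on Ly6e gained 2.24 ± 0.26 between the time points (adjusted p = 1.96e-06), and the VWF effect 2.29 ± 0.30.

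Ly6c1, nearly identical to Ly6c2 in coding sequence, was near the limit of detection in all groups. Its group means were between 0.0450 and 0.399 CPM, and the highest culture, LPS culture 1 at 16 h, held 49 counts while LPS culture 4 held 0. At 16 h the VWF cultures held 4, 8, 2, 2 and 0 counts and the controls 7, 13, 2, 2 and 8. Ly6c1 never reached 10 TPM. Without a filter its difference from control at 16 h was 2.18 ± 1.00 for LPS (adjusted p = 0.142). It was 0.98 without LPS culture 1 and 2.59 without LPS culture 4, the latter passing the test (adjusted p = 0.0228). The log2 difference of VWF from LPS at 16 h was -3.03 ± 0.99, and -1.86 without LPS culture 1. A rise of Ly6c1 like that of Ly6c2 under VWF was not seen at this depth: Ly6c2 reached 1211 counts in a VWF culture at 16 h in which Ly6c1 had 8.

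The members can be compared with each other per length, in TPM. With VWF at 16 h the mean levels were 1077 TPM for Ly6e, 87.5 TPM for Ly6a, 39.6 TPM for Ly6i, 13.7 TPM for Ly6c2 and 0.0743 TPM for Ly6c1. With LPS the order was the same, with 1409 TPM for Ly6e, 896 TPM for Ly6a, 25.9 TPM for Ly6i, 3.45 TPM for Ly6c2 and 0.528 TPM for Ly6c1. In 16 h controls Ly6e held 166 TPM, Ly6a 6.07 TPM and the other members at most 0.330 TPM. Within the VWF group at 16 h, replicate 5 was the lowest culture for each of the 5 members, and replicate 4 the highest for Ly6i, Ly6c2, Ly6a and Ly6e.

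By the call used here, an adjusted p under 0.05 and a log2 fold change beyond 1, Ly6a and Ly6e were called higher of the 2 members that could be tested for LPS at 3.5 h, where 12.8% of all genes tested were higher. For LPS at 16 h Ly6a and Ly6e, which reached 10 TPM in a control culture too, were called higher, beside 15.3% of all genes. Ly6i was also called there, but it passed the filter only through its LPS cultures at 16 h, so it is left out of this count and of those for LPS over time. For VWF at 3.5 h none of 2 was called by edgeR or DESeq2, with Ly6e under 0.05 before adjustment, and 9.18% of all genes were higher. For VWF against LPS at 3.5 h none of 2 was called lower by edgeR, 1 was by DESeq2 and both were under 0.05 before adjustment, with 6.71% of all genes lower. Between 3.5 h and 16 h with LPS, Ly6a and Ly6e were called higher beside 14.6% of genes, and the gain of the LPS effect was called for both beside 13.5%. In the control cultures alone, between 3.5 h and 16 h Ly6a differed by -1.10 ± 0.62 (adjusted p = 0.173) and Ly6e by -0.48 ± 0.20 (adjusted p = 0.0727), with none called by either tool and 4.99% of all genes lower.

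**Figure D3:**
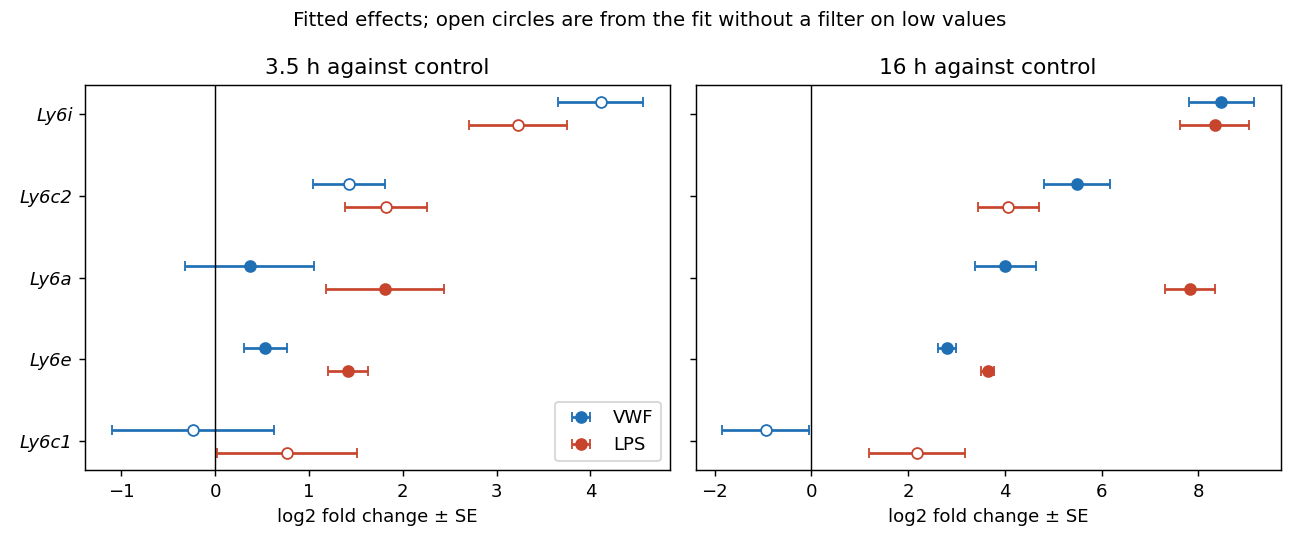
Log2 fold change against control with its SE (horizontal axis) for each member (vertical axis) at 3.5 h (left) and 16 h (right), in blue for VWF and red for LPS. Open circles come from the fit without a filter on low values. At 16 h VWF and LPS values were 8.48 and 8.34 for Ly6i but 4.01 and 7.83 for Ly6a.

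Ly6a and Ly6e are known as interferon targets, so the members were set beside a list of 28 interferon-stimulated genes, whose products include antiviral effectors and chemokines. The list was already high at 3.5 h. For VWF against control, 27 of its 28 measured genes rose at 3.5 h, with a median log2 fold change of 4.79, and 27 of 27 rose at 16 h, with a median of 2.97. All genes tested had medians of 0.0015 and -0.03, and 9.18% and 4.55% of them were called higher. The change of the VWF effect with time was called lower for 14 of the 28 and higher for 4, with a median of -1.10. Of all genes, 8.05% and 5.47% were called so. Ly6a, Ly6c2, Ly6e and Ly6i had gains between 2.29 and 4.42. Such values chose Ly6i, so these gains are a description and no test against the list. Ly6i and Ly6c2 passed the filter of this fit only through their VWF cultures at 16 h. Ly6c1, under 10 TPM, had -0.66 ± 1.25 without a filter. Cxcl10, a chemokine of this list, had a VWF effect of 8.97 ± 0.51 at 3.5 h and 4.88 ± 0.34 at 16 h. Ifit3, the highest of the list at 16 h, had 5.70 ± 0.35 and 5.27 ± 0.36.

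With LPS 28 of 28 of the list rose at both times, with medians of 6.72 and 7.49. In VWF against LPS at 16 h all 28 were lower with VWF, beside 14.5% of all genes, with a median log2 difference of -3.21 and values of -7.28 ± 0.38 for Cxcl10 and -1.81 ± 0.10 for Trim30a. With library size alone as the scaling 24 of the 28 were still called lower. Among the Ly6 members Ly6a had -3.76 in the same comparison, within the range of the list, while Ly6e had -0.79, Ly6i 0.19 ± 0.33 and Ly6c2 1.57, all above the value of every gene of the list, the highest of which was -1.11. The value of Ly6i was -0.05 without VWF culture 4. Ly6i was chosen on its late VWF effect, and Ly6c2 passed the filter of this fit only through its VWF cultures. The places of the members beside the list are therefore a description and no test.

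Of 16 genes of interferon ligands, receptors and signaling, 9 of 13 tested rose with VWF at 3.5 h and 3 of 12 at 16 h, beside 9.18% and 4.55% of all genes, and with LPS 8 of 13 and 10 of 12, beside 12.8% and 15.3%. With library size alone as the scaling the last count was 6. Ifnb1, which encodes interferon beta, rose at 3.5 h by 6.64 ± 0.61 with VWF and 12.08 ± 0.46 with LPS (adjusted p = 3.86e-06 and 2.17e-09). Irf1, an early transcription factor of the response, rose by 3.01 ± 0.23 with VWF at 3.5 h and had a difference of 0.56 ± 0.11 at 16 h, under the fold needed. Irf7, which amplifies type I interferon signaling, rose by 1.67 ± 0.33 at 3.5 h and 4.57 ± 0.31 at 16 h with VWF, a gain of 2.92 ± 0.44 (adjusted p = 3.22e-05). Ifngr1, a chain of the interferon gamma receptor and the lowest of this list at 16 h, had -0.09 ± 0.15 with VWF and fell by 1.51 on the log2 scale with LPS.

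**Figure D4:**
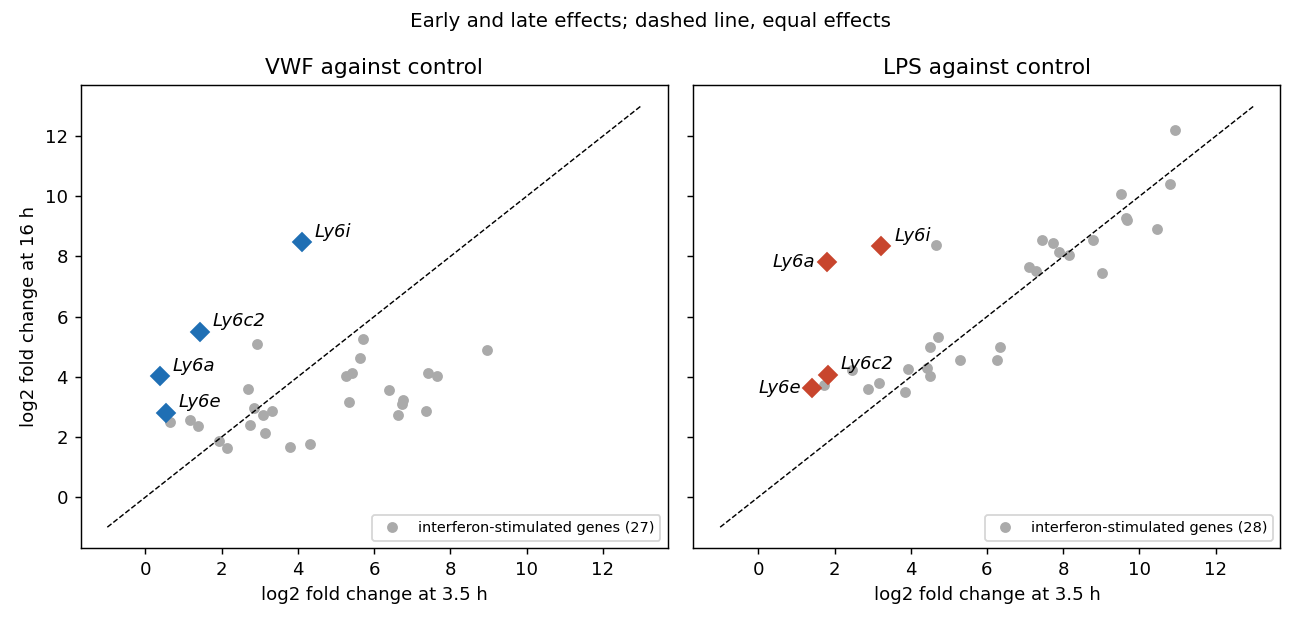
Log2 fold change against control at 16 h (vertical axis) against that at 3.5 h (horizontal axis) for the Ly6 members (diamonds) and the interferon-stimulated genes tested at both times (grey), for VWF (left) and LPS (right). Points above the dashed line had a larger effect at 16 h. All 4 members drawn lie above it, and the list median for VWF went from 4.79 to 2.97. The late VWF effect chose Ly6i, so its place in the left panel is no test. Ly6c1 is not drawn, and values of members under 10 TPM are from the fit without a filter.

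Other genes of the Ly6 cluster were almost silent. Of 16 further Ly6 and related genes of chromosome 15, 14 were in the table by these symbols, and none reached 10 TPM. Among them 5 had 0 counts in all 28 cultures and 7 had at most 4 counts in any culture. Lynx1, a modulator of nicotinic receptors, had up to 97 counts in a culture and a group mean of at most 0.666 TPM, and Ly6d up to 16 counts; both are named after their values were seen. Of 18 Ly6/uPAR genes elsewhere, Plaur and Cd59a reached the filter. Plaur, the urokinase receptor, rose by 1.28 ± 0.11 with LPS at 3.5 h (adjusted p = 1.74e-06), a call lost with library size alone as the scaling, and had -0.90 ± 0.13 with VWF at 16 h. Cd59a, an inhibitor of the complement attack complex, fell by 1.17 on the log2 scale with LPS at 16 h (adjusted p = 0.0188) and had -0.41 ± 0.25 with VWF.

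The genes that make and attach GPI anchors were followed as well, since Ly6 proteins depend on them. Of 15 tested, Pigv, a mannosyltransferase of the pathway, was the 1 that rose with VWF at 3.5 h, by 1.53 ± 0.10, beside 9.18% of all genes. None was called with VWF at 16 h by edgeR or DESeq2, with 6 under 0.05 before adjustment and 4.55% of all genes higher. With LPS, Pigv and Pgap2 rose at 3.5 h and Pgap2 at 16 h, beside 12.8% and 15.3% of all genes. With library size alone as the scaling 1 rose with LPS at 3.5 h, and at 16 h 1 rose and 3 fell. Pigv is named here after its values were seen. Pgap2, which remodels the anchor in the Golgi, had the highest value of the list in both 16 h comparisons, with 0.84 ± 0.15 for VWF and 1.76 ± 0.23 for LPS, the latter a call (adjusted p = 1.47e-04). The lowest were Dpm3 with VWF, at -0.50 ± 0.43, and Pigp with LPS, at -0.83 ± 0.15, neither of which passed the call.

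The genes whose pattern over the 28 cultures was most like a member's were ranked by the Pearson correlation of log2 CPM among 8866 other genes that reached 10 TPM in any culture. The 28 points share libraries and treatments, so the values describe the pattern and carry no test. For Ly6i they were Ass1 (r = 0.971), which makes argininosuccinate for arginine recycling, the plasma protein gene Hp (0.968), the scavenger receptor gene Marco (0.951), the hematopoietic adaptor gene Hcls1 (0.948) and the acute-phase gene Saa3 (0.943). Of these 5, 3 stayed among the closest 5 with Spearman's correlation and 4 with library size as the scaling. Ass1 had 14.3 ± 6.46 CPM in 16 h controls, 427 ± 95.3 CPM with VWF (SD, n = 5) and 368 ± 71.6 CPM with LPS (SD, n = 4), which like Ly6i were near each other. Marco was higher with VWF, at 1046 ± 225 CPM (SD, n = 5), than with LPS, at 386 ± 156 CPM (SD, n = 4), and Saa3 the other way round, at 5167 ± 1738 CPM and 20386 ± 11117 CPM.

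**Figure D5:**
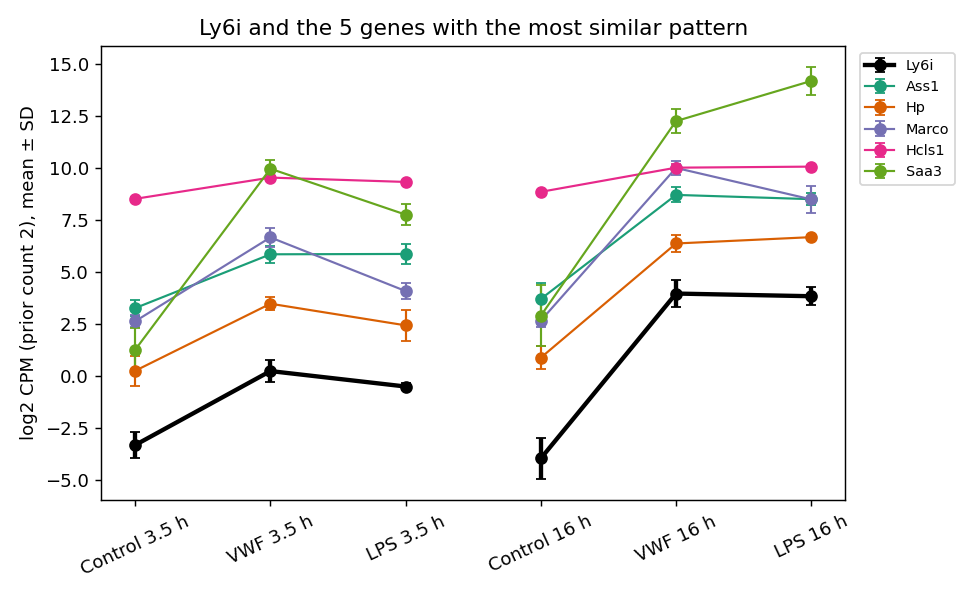
Group mean and SD of log2 CPM (vertical axis) for Ly6i and the 5 genes most like it over the 6 groups (horizontal axis). All 6 genes were lowest in the controls and highest in the treated groups at 16 h, at levels that differ between genes, and Saa3 and Marco order VWF and LPS at 16 h differently.

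Ly6c2 was most like Ctsh (r = 0.949), which encodes the lysosomal protease cathepsin H, and Ass1 (0.940), with Ly6i next at 0.923. Ass1 came first with Spearman's correlation (0.960) and with library size as the scaling (0.938), where Ctsh had ranks 5 (0.899) and 3 (0.887). Ly6e was most like the Fc receptor gene Fcgr1 (0.971) and Irf7 (0.969). Ly6a was most like Ly6e (0.939) and Treml2 (0.939), a receptor gene of the TREM family. With the group means removed, Ly6a and Ly6e still varied together between cultures (r = 0.914 over 28 cultures), more than Ly6i did with Ly6c2 (0.596) or with Ly6a (0.469).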

How the data were processed

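RNA of 28 BMDM cultures was sequenced in paired reads of 150 bases. Per the labels and the study's methods, the authors mapped reads to GRCm38 (mm10) with STAR and deposited raw read counts per gene; the annotation release, strand setting and treatment of reads with several matches were not stated. Total counts ranged from 41131209 to 77699206, and no pair of libraries was a duplicate by a chi-square comparison over genes.

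CPM with TMM factors over all cultures, log2 CPM (prior count 2) and TPM from GENCODE M21 exon lengths were computed. Each comparison was fitted across genes reaching 10 TPM in at least 1 of its cultures with edgeR 4.0.16 (robust quasi-likelihood, R 4.3.3), with Benjamini-Hochberg adjustment; a call needed an adjusted p under 0.05 and an absolute log2 fold change over 1. Members under 10 TPM were taken from the fit without that filter. Fits were tested on simulated data. Alternatives were DESeq2 1.42.0, median-of-ratios and library size scaling, other filters, all cultures in 1 fit, no fold threshold, a replicate block, summed paralogs and leaving out each culture. Over the genes reaching 10 TPM, every same-numbered pair had deviations correlated over 0.1 only for VWF and LPS at 16 h (r from 0.160 to 0.781, 4 pairs). The pairing comes from the numbers in the labels. This rule cannot show that cultures of the other groups are unpaired, since replicate 1 had the highest stromal sum in every group. The main fits used no replicate block. Named genes were the 5 members, the 5 genes most like Ly6i and the 2 most like each other member reaching 10 TPM, the highest and lowest of each pathway list at 16 h, and Ly6g, Plaur, Cd59a, Ifnb1, Irf1 and Irf7; 1 further gene of this rule is not reported here. Cx3cr1, Ccr2, Lynx1, Ly6d and Pigv were named after their values were seen. The members and all gene lists were chosen with earlier results of these data known. Promoter sequences came from RefSeq (GRCm38.p6) and were present for 2 of 5 members.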

Additional observations from a re-analysis of the deposited data

Results flagged for a closer look

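Among 30 sets of cultures, 1 per member and group, the highest or lowest culture lay far from the rest in 2. For both ends together chance gives about 1 in 20, so 2 of 30 is near that share. In both sets it was the highest culture. Ly6c1 had 0.284 CPM (16 counts) in VWF culture 1 at 3.5 h, and the next culture had 0.0610 CPM (3 counts). Ly6i had 2.19 CPM in VWF culture 4 at 3.5 h, and the next had 1.14 CPM.

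The LPS effect differed between 16 h and 3.5 h for Ly6a and Ly6e, by the interaction term of edgeR's quasi-likelihood fit with Benjamini-Hochberg adjustment. The difference on the log2 scale was 6.02 for Ly6a (adjusted p = 2.32e-05) and 2.24 for Ly6e (adjusted p = 1.96e-06). Of all genes, 13.5% were called higher in this fit. Ly6i was flagged too, at 5.13, but it passed the filter only through its LPS cultures at 16 h. In this fit it is therefore given without a p-value and is not counted.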

How the results depend on the processing

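Apart from leaving out cultures, no alternative reversed a member's log2 fold change, and 265 of 275 such values kept their side of the threshold. The numbers of members called below describe only how calls depend on the setting. For VWF against control at 3.5 h the number was 0. It became 2 with edgeR's own filter, without a filter and with all 28 cultures in 1 fit. Without a filter the 2 were Ly6c2 and Ly6i, beside 5.33% of all genes higher, and Ly6i was chosen on its VWF effect. For LPS against control at 3.5 h the number of members called went from 2 to 0 with library size scaling. It went to 4 with edgeR's own filter and with all cultures in 1 fit. For VWF against LPS at 3.5 h it went from 0 to 1 with DESeq2, edgeR's own filter, the replicate block and no fold threshold. With single cultures left out these last 2 counts ranged from 1 to 2 and from 0 to 2. The cause was not tested, except that the wider filters test more members. With the replicate number as a block, Ly6a in VWF against LPS at 3.5 h was -1.31 (adjusted p = 0.00251, edgeR), and no other count of member calls changed; same-numbered cultures of these groups had deviations correlated between -0.153 and 0.449. Leaving out 1 culture turned the direction of Ly6c1 for VWF at 3.5 h (-1.42 to 0.10), control over time (-0.52 to 0.12), VWF over time (-1.35 to 0.30), LPS over time (-0.024 to 1.60) and the change of the VWF effect (-1.13 to 0.49), of Ly6c2 for VWF against LPS at 3.5 h (-0.73 to 0.18) and control over time (-0.60 to 0.027), and of Ly6i for VWF against LPS at 16 h (-0.053 to 0.40). Library size scaling moved the median of all genes by -0.52 and -0.54 for LPS against control at 3.5 h and 16 h, by -0.22 for VWF at 3.5 h, by 0.29 and 0.44 for VWF against LPS, and by 0.15 for the change of the VWF effect. Depth limits Ly6c1 in all groups and Ly6i and Ly6c2 in controls.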
